A study of Mus musculus with 6 samples.

Results

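The proteasome is the barrel-shaped protease that degrades ubiquitin-tagged proteins. Its genes were examined in acinar cells of the adult mouse pancreas, which make and secrete digestive enzymes. Members were the protein-coding genes with a symbol starting Psma to Psmg followed by a digit, together with Pomp, and annotated pseudogenes were left out. This gave 51 of the 55414 genes in the count tables. Of these, 8 code for alpha and 7 for constitutive beta subunits of the 20S core, 4 for tissue- or interferon-specific beta subunits, 6 for ATPases and 11 for other subunits of the 19S cap. A further 8 are assembly chaperones and 6 are activators or the regulator Psmf1. Psmc3ip matches the symbol rule, but its product is a meiotic recombination factor and no proteasome subunit.

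The study compared 3 control libraries, genotype Pdx1Cre;Trip12+/+, with 3 libraries in which the floxed Trip12 alleles were deleted by the same Pdx1Cre driver. All 6 were labelled adult and untreated, and all carried Cre. TRIP12 is a ubiquitin ligase, an enzyme that marks proteins for the proteasome. Pdx1-driven Cre acts in the embryonic pancreas, so acinar, ductal and islet cells can all carry the deletion. The labels call the preparations biological replicates and do not say whether each came from its own animal, so p-values measure only the spread between these preparations. The tumour cell lines named in the series title were not analysed here.

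In the 26S proteasome, alpha subunits form the outer rings of the core and gate its entry. The beta subunits Psmb5, Psmb6 and Psmb7 carry the catalytic sites in the inner rings. The ATPases of the cap unfold substrates, and the non-ATPase subunits bind and deubiquitinate them. In cells exposed to interferon, Psmb8, Psmb9 and Psmb10 can replace Psmb5, Psmb6 and Psmb7, which gives the immunoproteasome. The transcription factor NFE2L1 raises many subunit genes together when proteasome activity falls. Acinar cells make large amounts of secretory protein and clear misfolded products through this system.

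Gene counts per library ran from 31019500 to 34041901. Trip12 was at 29, 22.3 and 26.4 CPM (counts scaled to a common library size, with TMM factors that align most genes between libraries) in control and 14.4, 14.7 and 13 in knockout. Its log2 fold change was -0.89 (SE 0.14; edgeR adjusted p = 0.0256), and the groups did not overlap. All 12 acinar markers examined were detected in every library. By Xist and Y-linked counts, control 2 and control 3 read as female, while control 1 and the 3 knockouts read as male. Sex and genotype were therefore only partly separable. TMM factors were 1.02, 0.785 and 0.809 for the controls and 1.19, 1.12 and 1.16 for the knockouts. The 12 acinar markers together held 435000, 592000 and 556000 CPM in control and 371000, 370000 and 381000 in knockout. The part of these differences in the values below was not tested, although fits with sex or another scaling are given for some. Both libraries that read as female are controls, so a fit with sex sets the knockouts against control 1 alone. In bulk RNA, fewer cells of a type and less RNA per cell cannot be told apart.

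Promoter sequence is shown for 4 members on which the results below turn: Psmb5 and Psmb6, which code for catalytic subunits, and Psmd6 and Psma6, the core and cap genes with the lowest fold changes. Each run is the 250 bases before a transcription start in RefSeq (GRCm38.p6), 5′ to 3′ on the gene's strand, with motif matches in capitals.
Psmb5, chr14:54617996-54618245, minus strand: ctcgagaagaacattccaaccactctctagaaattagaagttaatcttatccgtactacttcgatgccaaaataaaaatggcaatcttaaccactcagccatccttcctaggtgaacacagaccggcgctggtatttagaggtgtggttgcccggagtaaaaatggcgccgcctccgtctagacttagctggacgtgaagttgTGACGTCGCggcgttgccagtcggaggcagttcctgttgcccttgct
Psmb6, chr11:70525107-70525356, plus strand: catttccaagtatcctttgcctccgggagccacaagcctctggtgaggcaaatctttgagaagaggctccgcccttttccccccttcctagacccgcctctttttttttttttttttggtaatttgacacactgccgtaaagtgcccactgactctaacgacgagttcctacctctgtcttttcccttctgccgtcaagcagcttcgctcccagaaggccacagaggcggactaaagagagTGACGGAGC
Psmd6, chr14:14120946-14121195, minus strand: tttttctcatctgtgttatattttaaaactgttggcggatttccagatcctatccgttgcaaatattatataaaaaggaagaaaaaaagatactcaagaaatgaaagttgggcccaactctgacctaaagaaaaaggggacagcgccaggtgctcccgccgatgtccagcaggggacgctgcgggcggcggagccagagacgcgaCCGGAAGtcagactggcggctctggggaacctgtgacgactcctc
Psma6, chr12:55398575-55398824, plus strand: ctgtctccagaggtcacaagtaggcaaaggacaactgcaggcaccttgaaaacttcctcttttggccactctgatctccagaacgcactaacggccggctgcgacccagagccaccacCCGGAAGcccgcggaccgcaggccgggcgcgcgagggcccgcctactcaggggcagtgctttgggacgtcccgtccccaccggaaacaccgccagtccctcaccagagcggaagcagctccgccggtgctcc
The capitals in Psmb5 and Psmb6 match TGACNNNGC, the antioxidant response element (ARE) bound by NFE2L1 and related factors. Those in Psmd6 and Psma6 match CCGGAAG, a site type of ETS family factors. A total of 4 motifs were searched on both strands in these windows: ARE, the interferon-stimulated response element (ISRE), CCAAT, and CCGGAAG. None of the 4 contains another. The first 3 were chosen from general knowledge, whereas CCGGAAG was added after the Psma6 and Psmd6 windows had been read. Psma6 has a further RefSeq start, whose window held CCAAT matches only. The window of Psmb10, which is not shown, held no match to any of the 4.

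Windows were listed for 43 of the 51 members, 46 windows in all. ARE matches were in 10.9% of member windows, in Psmb5, Psmb6, Psmc6, Psmd12 and Psmd9, against 10.2% of all 32851 windows and 11.7% of the 12716 windows of tested genes. CCAAT was in 32.6% against 33.8% and 34.9%. ISRE matches were in 6.52% of member windows, in Psmb3, Psmd4 and Psmd9, against 2.98% and 2.49%. CCGGAAG was in 32.6% against 6.91% and 13.1%. Its 14 members included Psmc3ip, which is no proteasome subunit, and otherwise spanned core, cap, chaperone and activator genes. Since that motif was picked from member sequence, its share describes these windows and is no independent finding. A match is a stretch of letters and was not tested as a binding site.

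No proteasome gene passed the test between knockout and control. A total of 47 of the 51 members were expressed well enough to test. With edgeR's quasi-likelihood test and Benjamini-Hochberg adjustment over 13115 genes, 0 of 47 members were called at an adjusted p under 0.05, where 0.945% of all tested genes were called, 0.465% higher and 0.48% lower. At an unadjusted p under 0.05, 4 members were lower (Psmd6, Psma6, Psma5 and Psmb10) and 0 were higher, against 8.27% and 8.45% of all tested genes (16.7% in either direction). DESeq2 called Psmd6 alone, where it called 4.62% of tested genes, and limma-voom called 0, where it called 0.64%. The 3 knockout libraries lay wholly above or below the 3 controls for 11 of 47 members (23.4%), 2 higher and 9 lower. That share was 22.9% over all tested genes, 12% higher and 10.9% lower, so in number the members did not stand out from the background. A fold change below 0 was found for 33 of 47 members, against 47.6% of tested genes, and their median log2 fold change was -0.11 against 0.022.

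The 95% interval of the fold change lay within 2-fold in either direction for 42 of 47 members and within 1.5-fold for 31. All 31 tested core and cap subunits were inside 2-fold and 27 were inside 1.5-fold. Psmb8, Psmb9, Psmg3, Psmg4 and Psme1, each at low or uneven levels, were the 5 members outside 2-fold.

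**Figure D1:**
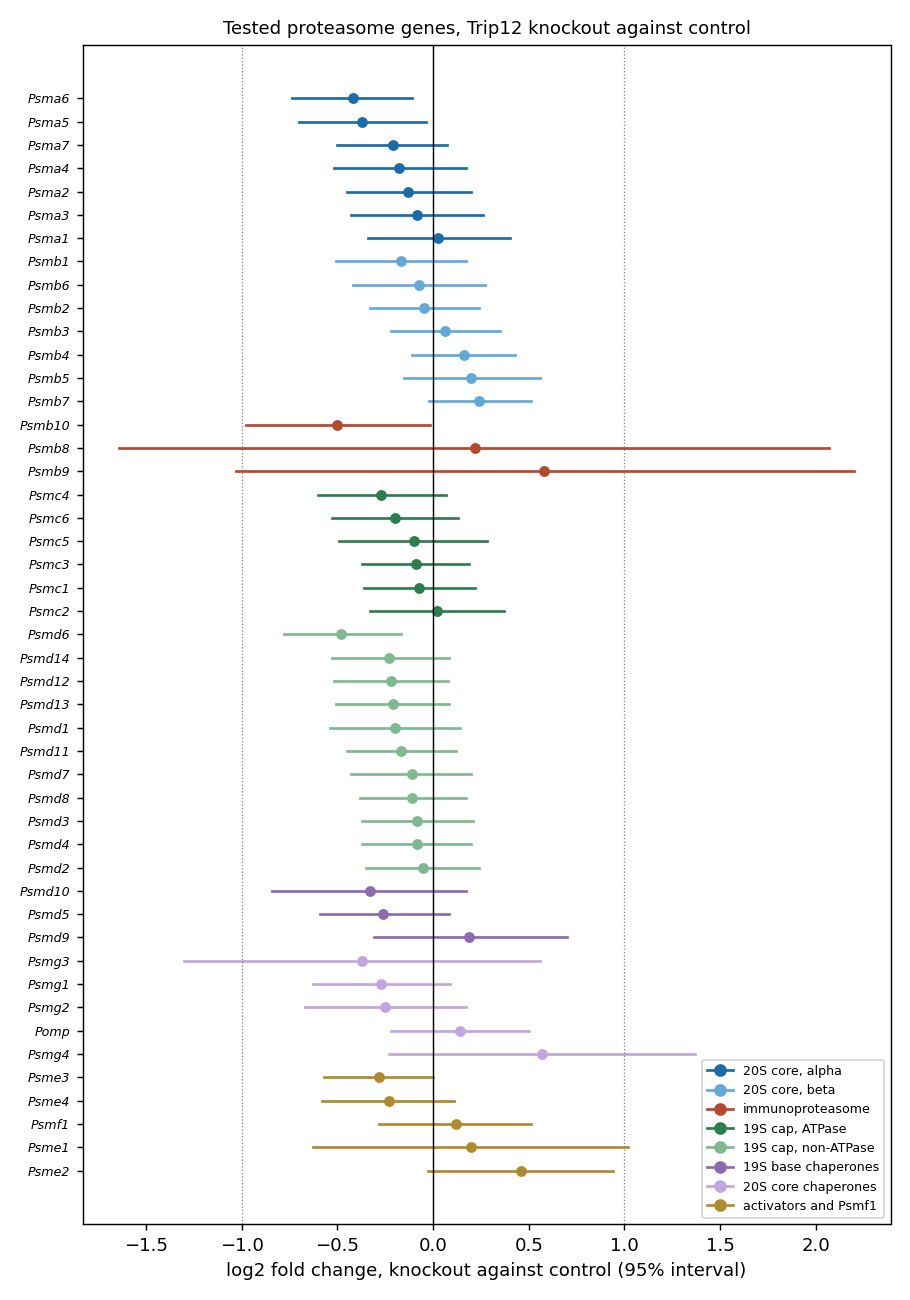
Log2 fold change, knockout against control, of the 47 tested members on the x axis with 95% intervals as bars and members grouped by role on the y axis. Dotted lines mark 2-fold. All 11 non-ATPase cap points lie left of 0 on the TMM scale without a sex term (1 of 11 with library totals, 9 of 11 with sex as a covariate), and the widest bars are those of Psmb8 and Psmb9.

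These directions depend on how libraries were scaled. When libraries were scaled by their totals instead of TMM factors, the median log2 fold change of the members was 0.31 and that of all tested genes 0.43, a difference of -0.12. On that scale 3 members were called higher, where 11% of tested genes were, and 25 members had every knockout above every control (38.9% of tested genes). The called members were Psmb4 (log2 fold change 0.58; edgeR adjusted p = 0.0339), Psmb5 (0.64; 0.0405) and Psmb7 (0.65; 0.0348). Psmb4 lies outside the rule for named genes and was named after its value was seen. With digestive enzymes left out of the library sizes, the member median was 0.091 and that of all tested genes 0.22, and 0 members were called (1.52% of tested genes). As a percentage of gene counts, core and cap together made up 0.0566%, 0.0513% and 0.0469% in control and 0.0628%, 0.0619% and 0.0633% in knockout, so every knockout was higher by this measure. The values below are on the TMM scale.

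The lean below 0 also depended on the libraries that read as female. With sex as a covariate, 27 of 47 members had fold changes below 0, against 33 without it, and their median was -0.062. In the male libraries alone, which leave 1 control, 26 of 47 were below 0 and the median was -0.043. The fit with sex likewise takes its genotype estimate from control 1 as the only control. Neither fit separates sex from other traits of that library. The fit with sex called no member. Values of these fits are given below for only some of the genes and groups that they changed. A gene without them need not be stable in these fits. With sex as a covariate Psmb5 was 0.43, Psma5 -0.16 and Psme3 -0.12, against 0.2, -0.37 and -0.28 without it.

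The alpha ring genes leaned lower, and 6 of 7 tested had fold changes below 0, with a median log2 fold change of -0.18. That median was -0.063 with sex as a covariate and -0.039 without control 2, with 5 of 7 below 0 in each. It was 0.24 with library totals and 0.024 with digestive enzymes left out. Psma6, an alpha ring subunit, was at 17.1, 21.9 and 17.2 CPM in control and 13.9, 14.3 and 13.8 in knockout. Knockout libraries lay close together and below every control. Its log2 fold change was -0.42 (SE 0.14; edgeR adjusted p = 0.178), which did not pass. The estimate was -0.002 with library totals, -0.22 with digestive enzymes left out and -0.28 in males. Psma5, named after its value was seen, was at 7.5, 9.41 and 9.2 CPM in control and 6.81, 7.11 and 6.25 in knockout, also without overlap (-0.37; edgeR adjusted p = 0.259). At the other end, Psma1 was at 11.6, 12.4 and 8.62 CPM in control and 10.1, 11.3 and 12 in knockout, with overlapping groups and a log2 fold change of 0.028 (SE 0.16). Summed over the group, alpha subunits came to 119 ± 14.2 CPM (SD, n = 3) in control and 104 ± 3.2 in knockout. Psma8, the testis form of an alpha subunit, had 4, 3 and 2 counts in control and 3, 0 and 0 in knockout and was not tested.

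Constitutive beta subunits did not share that lean. Of the 7, 3 had fold changes below 0 and 4 above, with a median of 0.063 on the log2 scale. This median was 0.13 with sex as a covariate, and -0.0047 without control 3. Their sum was 127 ± 12 CPM (SD, n = 3) in control and 128 ± 2.98 in knockout. The catalytic Psmb7 was at 11.6, 11.5 and 11.9 CPM in control and 13, 14 and 14.3 in knockout. Every knockout library was above every control, at a log2 fold change of 0.24 (SE 0.12; edgeR adjusted p = 0.344). These counts leave out reads in exons that Psmb7 shares with Nek6. On forward-strand counts the estimate was 0.22, and no member had every knockout above every control. Psmb1, a non-catalytic member, was at 28.6, 38.5 and 38.5 CPM in control and 31.4, 29.8 and 32.6 in knockout, with a log2 fold change of -0.17 (SE 0.15). Its groups overlapped through the low value of control 1. Psmb5 was at 7.87, 10.3 and 9.6 CPM in control and 12.2, 9.76 and 9.9 in knockout (0.2; SE 0.16). For Psmb6 the control values were 22.6, 29.9 and 22.6 CPM and those of the knockouts 24.6, 25.1 and 21.6 (-0.074; SE 0.15). Both sets overlapped. The difference between alpha and beta subunits was not tested.

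Among cap ATPases, which drive substrate unfolding, the median log2 fold change was -0.096 and 5 of 6 were below 0, with all groups overlapping. The count turned to 4 of 6 above 0 with sex as a covariate, at a median of 0.019. With library totals all 6 were above 0. Psmc4 had the lowest fold change, with 14.1, 17.1 and 12.5 CPM in control and 11.6, 11.6 and 13 in knockout (-0.27; SE 0.15; edgeR adjusted p = 0.411). Psmc2 had the highest, with 16.3, 22.3 and 16.3 CPM in control and 18.2, 19.6 and 17.9 in knockout (0.02; SE 0.15). Only knockout 3 of Psmc4 exceeded the lowest control.

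The non-ATPase cap genes all had fold changes below 0 on the TMM scale, 11 of 11, with a median of -0.17 when sex was not in the fit. With sex as a covariate 9 of 11 were below 0, in males 8 of 11, and without control 1 or control 2 10 of 11. With library totals 1 of 11 was below 0, at a median of 0.25, and with digestive enzymes left out 5 of 11 were, at 0.033. Psmd6, a lid subunit of the cap, was at 56.9, 66.7 and 61.7 CPM in control and 41.3, 46.6 and 45.2 in knockout. On this scale the highest knockout was below the lowest control. The log2 fold change was -0.48 (SE 0.13), and the adjusted p of 0.133 from edgeR was the lowest of any member. DESeq2 gave -0.5 with an adjusted p of 0.00651. In edgeR fits the estimate was -0.057 with library totals, -0.28 with digestive enzymes left out and -0.36 with sex as a covariate. Psmd11 and Psmd14, the latter the deubiquitinase of the cap, also had every knockout below every control, at -0.17 (edgeR adjusted p = 0.557) and -0.23 (0.454), and were named after their values were seen. Psmd2, a scaffold subunit, was nearest to 0 when sex was not in the fit (-0.055; SE 0.13). It was at 25.7, 21.2 and 21.3 CPM in control and 21.1, 22.7 and 22 in knockout. Only control 1 stood above the rest. With sex as a covariate Psmd2 was -0.23. Non-ATPase levels summed to 231, 253 and 233 CPM in control and to 196, 210 and 211 CPM in knockout. That sum was lower in every knockout on the TMM scale.

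Core and cap were set against each other within libraries, which removes scaling. The summed core CPM was 66.6%, 72.1% and 70% of the summed cap CPM in control and 77.6%, 73.7% and 72.6% in knockout. Each knockout was higher than each control, although control 2 and knockout 3 were close. Means were 69.6% ± 2.77 (SD, n = 3) and 74.6% ± 2.64. The cap sum was 335, 380 and 342 CPM in control and 297, 319 and 316 in knockout. Psmd6 alone made up 56.9, 66.7 and 61.7 CPM of it in control and 41.3, 46.6 and 45.2 in knockout. The part of Psmd6 in the higher ratio was not tested, so the ratio does not show a shift of the cap as a whole.

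On the TMM scale most core and cap genes shared a pattern across libraries. Control 2 had the highest CPM for 22 of the 31 tested core and cap members (71%), against 17.7% of all tested genes. That included 7 of 7 alpha and 6 of 6 ATPase genes. The median deviation of the 31 from the control mean was 0.14 in control 2 and -0.1 in control 1 on the log2 scale. Control 2 had the lowest TMM factor and read as female, and the part of either was not tested. As a percentage of gene counts, core and cap together were 0.0566% in control 1 and 0.0513% in control 2. Control 2 was thus not the highest library by that measure. Without control 2 the member median was -0.041, and without control 1 it was -0.19.

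**Figure D2:**
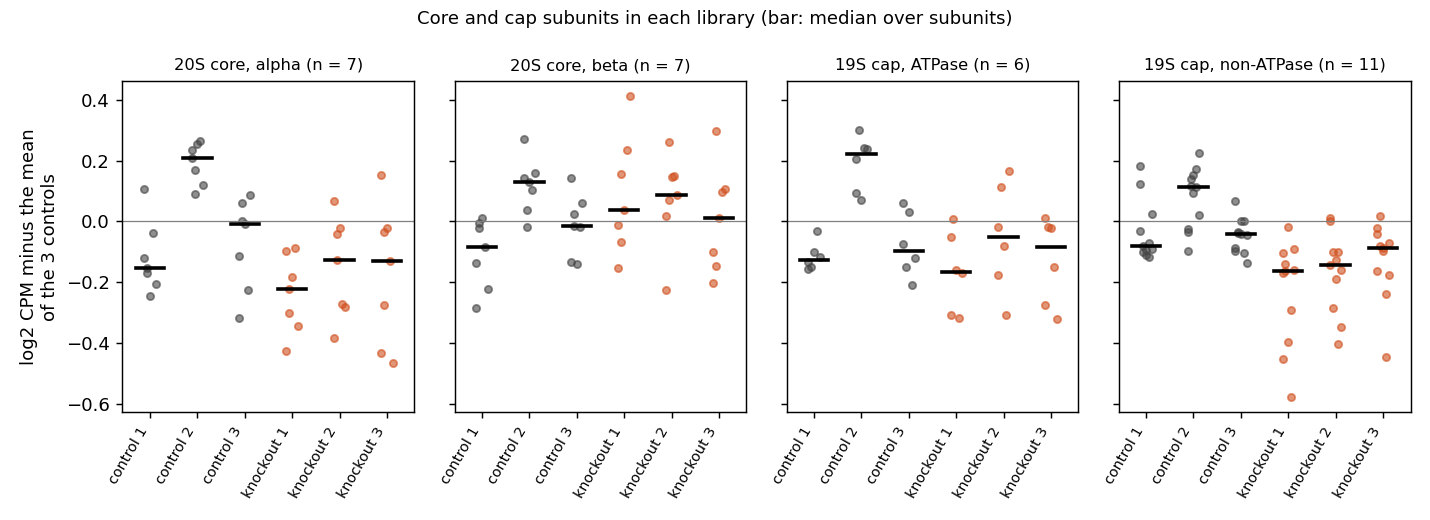
Log2 CPM of each tested core and cap subunit minus its mean over the 3 controls on the y axis, by library on the x axis, with a bar at the median and 1 point per gene. On the TMM scale the median of control 2 is above those of the other controls in all 4 panels. Non-ATPase medians are below 0 in the 3 knockouts on that scale, whereas library totals turn the group's median fold change to 0.25.

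Levels differed more between subunits than between genotypes. Counts were divided by the length of each gene's principal transcript for this, in CPM per kb. In control, alpha genes ran from 5.61 (Psma2) to 27.3 (Psma7), beta genes from 10.1 (Psmb7) to 31.4 (Psmb6) and ATPases from 7.51 (Psmc6) to 20.6 (Psmc3). Non-ATPase cap genes ran from 4.39 (Psmd1) to 44.5 (Psmd6), around a median of 9.49. Psmd6 was 1.87 to 2.76 times the next, Psmd8 (17.9), in each of the 6 libraries. With all annotated exons as the length, a choice added after the values were seen, that ratio was 1.84 to 2.71. The subunits occupy equal numbers in the assembled cap, whereas these are RNA levels and depend on the transcript length assumed.

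**Figure D3:**
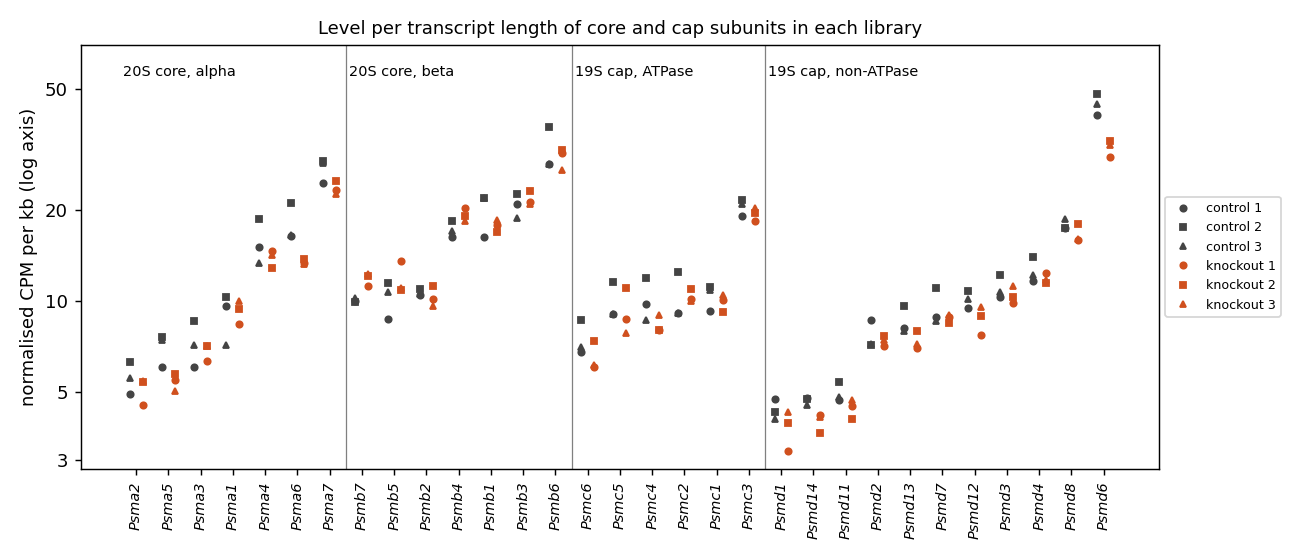
Normalised CPM per kb of principal transcript on a log y axis for the 31 tested core and cap subunits on the x axis, ordered by control mean within each group, with 1 point per library. Psmd6 is the highest non-ATPase cap subunit in every library, with its 3 knockout points below its 3 control points.

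The immunoproteasome genes divided into 1 at a high level and the rest near or at 0 CPM. Psmb10 was at 60.5, 94.6 and 73.2 CPM in control and 46.8, 67.4 and 47.3 in knockout. Its log2 fold change was -0.5 (SE 0.21; edgeR adjusted p = 0.288), and the groups overlapped through knockout 2. With sex as a covariate it was -0.17, in males -0.15, without control 2 -0.31, and with library totals -0.067. Psmb9 was at 3.31, 0.904 and 0.545 CPM in control and 3.7, 1.86 and 1.64 in knockout (0.58; SE 0.68). Psmb8 was at 2.49, 0.698 and 0.327 CPM in control and 2.36, 1.17 and 0.59 in knockout (0.22; SE 0.79). For both, replicate 1 of each genotype was the highest of its group and the groups overlapped. With sex as a covariate the log2 fold changes of Psmb9 and Psmb8 were -0.46 and -0.86, of the opposite sign. That fit sets the knockouts against control 1, the control with the most Psmb8 and Psmb9. Sex and other traits of control 1 cannot be told apart there. Psmb11, the thymus-specific beta subunit, had 0 counts in all 6 libraries.

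Leukocytes express Psmb8 and Psmb9 at high levels. The summed CPM of 20 leukocyte markers was 267, 58 and 33.5 in control and 181, 37.2 and 110 in knockout. Of these markers, 18 were detected in every library, Cd3g and Ms4a1 were at 0 in at least 1, and 0 of the 17 tested were called. Replicate 1 was again the highest of each genotype, whereas knockout 2 had less marker signal than knockout 3 and more Psmb8 and Psmb9. The part of leukocyte RNA in these values, and in the fit with sex that rests on control 1, was not tested.

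**Figure D4:**
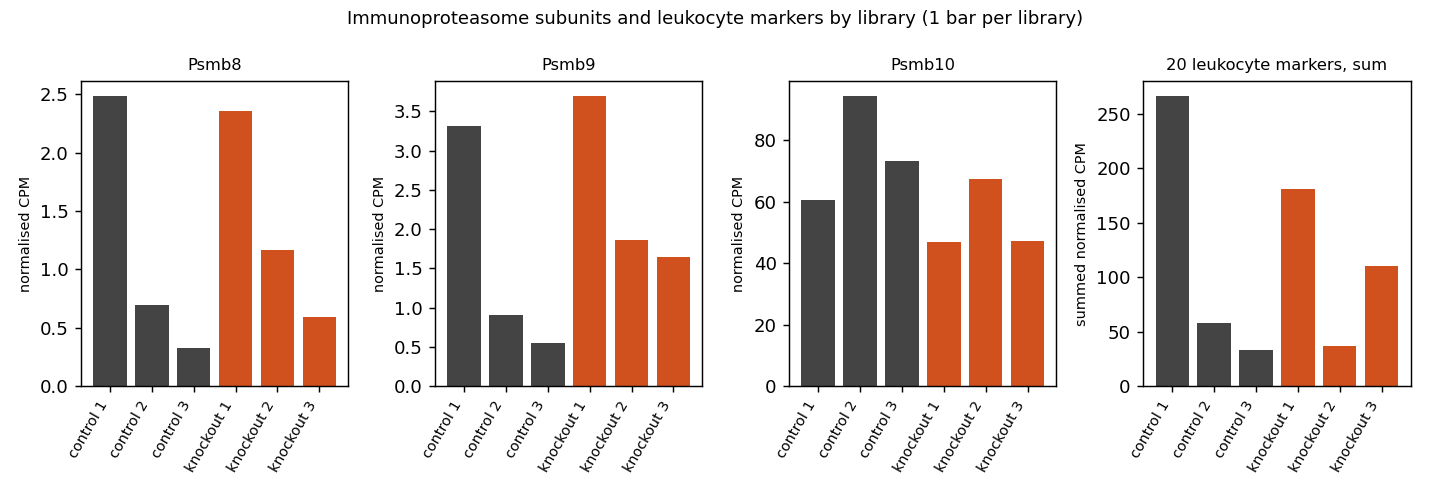
Normalised CPM of Psmb8, Psmb9, Psmb10 and of the summed 20 leukocyte markers on the y axes, with 1 bar per library. Psmb8, Psmb9 and the markers are highest in replicate 1 of each genotype, and Psmb10 is highest in control 2.

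Each inducible subunit was compared with the constitutive subunit that it replaces, per transcript length. Psmb10 stood at 460%, 728% and 547% of Psmb7 in control and 319%, 426% and 292% in knockout, so every knockout was lower. Psmb7 shares exons with Nek6 on the other strand, and reads there are dropped from the unstranded counts. The sum of the strand columns, an alternative added after the values were seen, held 1.93 times as many Psmb7 counts. Reads of these libraries do not show their strand, so that sum can include reads from Nek6 transcripts. It put Psmb10 at 250%, 332% and 290% in control and 160%, 228% and 157% in knockout, again all lower. Both settings thus place Psmb10 RNA above Psmb7 RNA in all 6 libraries. Neither gene of the pair was called on its own, at log2 fold changes of -0.5 and 0.24.

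The remaining pairs ran the other way. Psmb9 was 8.66%, 1.78% and 1.42% of Psmb6 in control and 8.88%, 4.36% and 4.48% in knockout. Psmb8 was 17.4%, 3.76% and 1.88% of Psmb5 in control and 10.6%, 6.62% and 3.29% in knockout. The constitutive gene therefore predominated at both positions in every library, and the groups overlapped. Reads in exons that Psmb8 shares with an antisense gene, Gm20496, were dropped in the same way. The Psmb8 strand sum was 2.36 times the unstranded count and can include reads from Gm20496. With strand sums, Psmb8 was at most 45.3% of Psmb5.

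**Figure D5:**
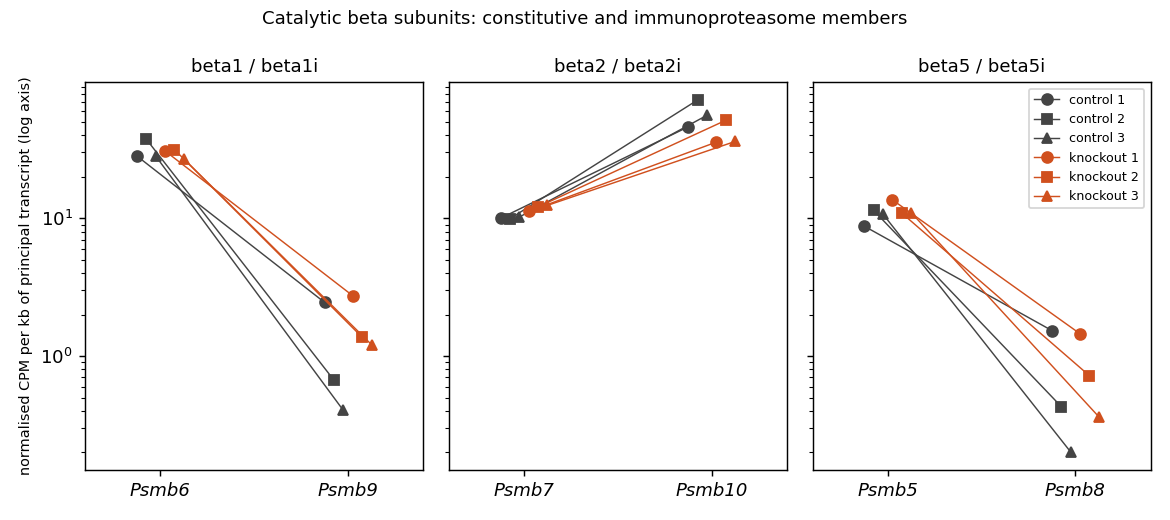
Normalised CPM per kb on log y axes for each constitutive catalytic subunit (left of each panel) and its inducible counterpart (right), with lines joining the values of 1 library. Lines fall for the Psmb6 and Psmb5 pairs and rise for Psmb7 to Psmb10 in all 6 libraries.

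Psmb10 lies 1872 bp from Ctrl, which codes for an abundant acinar protease, on the same strand in the GRCm38 annotation. Ctrl was at 18300, 23600 and 28200 CPM in control and 14300, 15000 and 13700 in knockout (log2 fold change -0.71; edgeR adjusted p = 0.131). Psmb10 had 3.31, 4.01 and 2.6 counts per 1000 Ctrl counts in control and 3.28, 4.5 and 3.45 in knockout, and these overlapped. Any part of Ctrl transcripts in the Psmb10 counts was not tested.

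Assembly chaperones had a median log2 fold change of -0.25 and 5 of 8 were below 0. The median was -0.15 without control 2 or without knockout 1, -0.12 on reverse-strand counts and -0.095 with sex as a covariate. With library totals it was 0.16, with all 8 above 0. The lowest was Psmg3, a chaperone of the alpha ring, at 0.724, 1.27 and 1.09 CPM in control and 0.911, 0.828 and 0.644 in knockout (-0.37; SE 0.41). Its partner Psmg4 was the highest, at 0.913, 1.19 and 0.8 CPM in control and 1.47, 1.23 and 1.61 in knockout (0.57; SE 0.35; edgeR adjusted p = 0.47). Psmg4 was higher in every knockout, although both genes are near 1 CPM and their intervals are wide. On forward-strand counts the Psmg4 estimate was 0.27 and its knockouts no longer all lay above the controls. Psmg1 of the alpha ring pair and Psmd5 of the cap base were lower in every knockout, at -0.27 and -0.26. They and Pomp were named after their values were seen. Pomp, which matures the beta ring, ran from 7.82 to 10.7 CPM in control and from 9.68 to 11.3 in knockout (0.14; SE 0.16). The summed chaperones were 40.8 ± 3.06 CPM (SD, n = 3) in control and 38.2 ± 1.08 in knockout.

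No activator was called, nor was the regulator Psmf1, which was grouped with them. The median log2 fold change of the 5 tested genes of this group was 0.12, the value of Psmf1, without a stable sign. It was -0.11 without knockout 1, -0.12 with sex as a covariate and -0.097 in males. Leaving out any other library gave values from 0.022 (without knockout 3) to 0.23 (without knockout 2). Psme2, part of the interferon-inducible PA28 ring, was at 6.17, 4.07 and 4.36 CPM in control and 8.15, 5.91 and 6.03 in knockout (0.46; SE 0.21; edgeR adjusted p = 0.326), with overlap through control 1. Its log2 fold change was 0.12 with sex as a covariate. Its reads are uncertain, because Psme2b is 99.4% identical over 82.5% of the Psme2 transcript and reads that fit both are not counted. Psme2b itself had 22, 0 and 3 counts in control and 12, 6 and 9 in knockout and was not tested. The nuclear activator Psme3 was at 20.4, 25 and 23.6 CPM in control and 18.9, 18.9 and 18.8 in knockout (-0.28; SE 0.13; edgeR adjusted p = 0.298). Its 3 knockout values nearly coincided below all controls. Psme4, another nuclear activator, was also lower in every knockout (-0.23), by a narrow margin at 39.4 against 39.3 CPM. Psme1 and Psmf1 had log2 fold changes of 0.2 (SE 0.35) and 0.12 (SE 0.18). With sex as a covariate Psme1 was -0.21 and Psmf1 0.23. Psme1, Psmf1 and Psme4 were named after their values were seen.

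Pseudogene copies at 95% identity or more over at least 50% of the transcript exist for 6 members, with 9 copies. The most read of these was Gm3375, a 98.9% identical copy of Psmb5, with 208 counts over the 6 libraries against 1932 for Psmb5. Psmd11 has a copy annotated as a processed transcript, A730017L22Rik, with 237 counts against 2564 for Psmd11. It is 97.9% identical over 52.7% of the Psmd11 transcript. Reads that fit a gene and its copy equally were counted to neither. The copy search was added after values were seen. Psmc3ip had 43 counts over all libraries and was not tested, and it shares exons with Mlx.

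Proteasome-associated genes outside the symbol rule were examined as a list, which like the lists that follow was written with earlier results known. Of 14 found, 0 were called, 13 had fold changes below 0 and the median was -0.12. Adrm1, a ubiquitin receptor of the cap, was the lowest, at 16, 21.2 and 18.9 CPM in control and 13.9, 14.6 and 11.6 in knockout (-0.49; SE 0.15; edgeR adjusted p = 0.164), without overlap. With library totals it was -0.058 and with sex as a covariate -0.26. Sem1, a small cap subunit, was the highest (0.11; SE 0.17).

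Regulators of the NFE2L1 response also gave 0 calls among 11 genes on the TMM scale, with a median of 0.019. Nfe2l1 itself was the highest, at 41.1, 36.2 and 33.9 CPM in control and 47.5, 43.5 and 51.4 in knockout (0.36; SE 0.14; edgeR adjusted p = 0.251), and every knockout was above every control. It was called with library totals (0.76; edgeR adjusted p = 0.0437), and was 0.21 with sex as a covariate (edgeR adjusted p = 0.721). Ngly1, whose product removes sugars from NFE2L1, was the lowest (-0.44; SE 0.19; edgeR adjusted p = 0.289), and its groups overlapped. The members with ARE letters in their promoter window had log2 fold changes between -0.22 (Psmd12) and 0.2 (Psmb5).

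Antigen presentation genes of the class I pathway, which the immunoproteasome feeds, gave 0 calls among 10 with edgeR on the TMM scale and a median of 0.35, with 8 above 0. H2-K1, a class I heavy chain, was at 38.1, 21.4 and 31.2 CPM in control and 100, 72.1 and 49.4 in knockout. Every knockout was above every control, at 1.29 (SE 0.3; edgeR adjusted p = 0.107). With replicate number as a block, a pairing that the labels do not state, 5.99% of all tested genes were called. H2-K1 was among them (edgeR adjusted p = 0.00518). DESeq2 also called it (adjusted p = 0.000251), as did edgeR with no filter on low counts (adjusted p = 1.75e-09) and with library totals (adjusted p = 0.0405). With sex as a covariate it was 0.96 and not called (edgeR adjusted p = 0.496). The peptide transporter gene Tap2 was at 3.75, 0.493 and 1.93 CPM in control and 6.57, 2.63 and 3.54 in knockout, with overlap. Its log2 fold change was 1.03 (SE 0.7; edgeR adjusted p = 0.535), and it was called only with the block (1.21; edgeR adjusted p = 0.0397) among the settings run. It was 0.18 with sex as a covariate, and 0.57 (without knockout 1) to 1.78 (without control 1) with 1 library left out. The block called 0 proteasome members, with a lowest adjusted p of 0.0603 (Psmd6). Nlrc5, the activator of class I genes, was the lowest of the list (-0.63), and was 1.53 without control 1.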

How the data were processed

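The authors deposited raw, whole-number counts per gene for each of 6 libraries, unstranded and for each strand. Per the labels' protocols the libraries were poly-A selected. The submitters' processing notes name STAR 2.7.10a and GRCm39/mm39 with no role, and the annotation is not given in the sources used here. Symbols and lengths came from GENCODE M21 (GRCm38), which held 52081 of 55414 identifiers (94%). No gene coordinates are given for that reason, and promoter windows are RefSeq GRCm38.p6. The 4 leading rows (36.9% to 45.7% of reads) were left out. The forward strand held 50.1% to 50.3% of strand counts, so unstranded counts were used.

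Counts were tested with edgeR 4.0.16 (R 4.3.3; TMM, filterByExpr, robust quasi-likelihood F test, Benjamini-Hochberg over 13115 genes; SE from the fold change and F). Alternatives used DESeq2 1.42.0, limma 3.58.1, other scalings, filters and columns, covariates and left-out libraries. BLAST 2.17.0 searched for copies. Code was tested on simulated data. Replicate numbers in the titles were taken to pair the libraries, since deviations of same-numbered libraries correlated (0.63, 0.455 and 0.285, others -0.496 to 0.21). The labels state no pairing, and these correlations come from the same counts that the block fit tested. The rule for named genes took Trip12, called members, the catalytic pairs, and the extremes of each group and list. Others named with fold changes were chosen after their values were seen. Members and lists were chosen with earlier results of these data known.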

Additional observations from a re-analysis of the deposited data

Results flagged for a closer look

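Reads placed outside annotated genes, which enter no comparison above, made up 1.32%, 1.03% and 0.893% of all reads in control and 1.95%, 2.18% and 1.9% in knockout, so every knockout was above every control. Their sources were not examined. Groups of 3 are too small for a check of single outlying libraries.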

How the results depend on the processing

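All 6 libraries were used, and 3 against 3 limits the precision. Over all tested genes, 124 were called. The count was 593 with DESeq2, 210 with a minimum of 10 counts per library, 200 with digestive enzymes left out, 1519 with library totals (1442 higher, 77 lower), 850 with no filter, 21 with a sex covariate, 18 in male libraries only, 785 with the replicate block, and 20 to 461 when 1 library was left out (20 without control 2, 461 without control 1, 24 without knockout 3, 27 without knockout 1, 54 without control 3). Members called were 0 in every setting run except DESeq2 (1) and library totals (3), so the block pairing changed no member's call. The member median was 0.31 with library totals, 0.091 without digestive enzymes, and -0.19 to -0.041 with 1 library left out. The core sum ratio, knockout over control, was 0.944, and 1.27 with library totals or 1.09 without digestive enzymes. The cap ratio was 0.883, and 1.18 or 1.01. Members whose groups did not overlap numbered 25 with library totals, all higher, against 38.9% of tested genes. Core medians were 0.053 with a sex covariate and 0.071 in males, against -0.08.

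Over the 47 members, signs turned for 30 with library totals, 15 without digestive enzymes, 14 with a sex covariate and 15 in males. Among the genes named by rule, the turned log2 fold changes, none called, were as follows, and the cause was not tested. With library totals the values were 0.26 (Psmb1), 0.35 (Psmb6), 0.15 (Psmc4), 0.34 (Psmd2), 0.076 (Psmg3) and 0.14 (Psme3). Without digestive enzymes they were 0.04 (Psmb1), 0.13 (Psmb6) and 0.13 (Psmd2). With a sex covariate they were -0.063 (Psma1), 0.13 (Psmb1), 0.075 (Psmb6), -0.86 (Psmb8), -0.46 (Psmb9) and 0.13 (Psmg3). In males they were -0.045 (Psma1), 0.14 (Psmb1), 0.093 (Psmb6), -0.84 (Psmb8), -0.45 (Psmb9) and 0.15 (Psmg3). Psmc2 was -0.0019 with DESeq2, -0.0025 with RLE factors and -0.0052 on forward-strand counts, and Psmb8 was -0.089 on reverse-strand counts. With 1 library left out, the lowest and highest values were -2.04 and 1.53 (Nlrc5), -0.11 and 0.13 (Psma1), -0.17 and 0.072 (Psmb6), -0.42 and 1.4 (Psmb8), -0.084 and 0.18 (Psmc2), -0.1 and 0.018 (Psmd2) and -0.02 and 0.25 (Sem1). Trip12 stayed below 0 throughout, with an edgeR adjusted p of 0.0676 to 0.14 when any library other than control 1 was left out, 0.074 without digestive enzymes, 0.125 with library totals, 0.0941 with a sex covariate and 0.123 in males.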
